A study of Mus musculus with 12 samples.

Results

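The CREB, CREM and ATF transcription factors and their coactivators were followed in mouse neutrophils and macrophages exposed to the neuropeptide CGRP. They were 10 genes, chosen by name (*Crem*, *Creb1*, *Creb3*, *Atf1*, *Atf2*, *Atf3*, *Atf4*, *Crtc2*, *Crtc3* and *Crebbp*), out of 52636 genes listed in each of 2 count tables, and all 10 passed the filter on low counts in both cell types. Neutrophils and monocytes came from the bone marrow of wild-type C57BL/6J mice aged 8 to 12 weeks. The neutrophils were used freshly isolated, and the monocytes after 3 days in culture with the growth factor M-CSF at 10 ng/ml. Exposure to CGRP at 1 nM, or to saline (PBS) as the control, lasted 4 h, and each of the 4 groups had 3 libraries. The cultured monocytes are named monocyte/macrophage in the labels and are called macrophages here, and no allele or transgene was carried by any group. None of the sources used here says that the libraries of a group came from separate mice, so that p-values measure the spread between these libraries, which may be technical.

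CGRP acts through a receptor that raises cAMP, and cAMP activates protein kinase A. Protein kinase A phosphorylates CREB1, CREM and ATF1, closely related proteins that bind the cAMP response element, and the phosphorylated factors recruit the histone acetyltransferase CREBBP. The CRTC coactivators are held in the cytoplasm by salt-inducible kinases and enter the nucleus when cAMP inhibits these kinases. The *Crem* gene also has an internal promoter from which a short repressor, ICER, is made in response to cAMP. In myeloid cells this pathway is known for restraining inflammatory genes, whereas ATF3 is a stress-induced repressor of cytokine genes and ATF4 drives the amino acid and stress response. The full response element reads TGACGTCA, and the shorter core site reads TGACG. On either strand, the full element was found in 1.79% and the core site, which the full element contains, in 20.8% of 32851 RefSeq promoters (GRCm38.p6, from 250 bases before to 50 after a start).

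Library totals ranged from 2719556 to 3631989 counts in saline neutrophils, 2196558 to 3270388 in CGRP neutrophils, 2536415 to 3477069 in saline macrophages, and 2002559 to 3259073 in CGRP macrophages. A floor of 3 counts was therefore worth between 0.873 and 1.52 CPM, for counting error only. CPM here are counts scaled to a common library size, with TMM factors set among the 6 libraries of a cell type, so that levels compare libraries within a cell type. Levels of different genes are not compared, because fragments near the 3′ end were counted. In bulk RNA, fewer cells of a type and less RNA per cell cannot be told apart.

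The libraries carried the markers of their labels. The 10 neutrophil markers, led by *S100a8*, summed to 141856 ± 27482 CPM in saline and 125085 ± 15674 CPM in CGRP neutrophils (SD, n = 3), against 308 ± 43.3 and 384 ± 23.2 CPM in macrophages. The 10 macrophage markers, led by *Lyz2*, which neutrophils also express, summed to 42630 ± 8386 CPM in saline and 45944 ± 3257 CPM in CGRP macrophages. Among them, *Csf1r*, the M-CSF receptor, was at 785 ± 136 and 1041 ± 186 CPM in macrophages and at 197 ± 14.2 and 180 ± 8.97 CPM in neutrophils. Marker values of the 2 cell types are on separate TMM scales and are set side by side only roughly. In 4 of the cases given here the marker sums of saline and CGRP libraries did not overlap. Macrophage markers were at 20133 to 24636 CPM in saline and 15406 to 19219 CPM in CGRP neutrophils, with *Mertk* at 0 in 1 saline library, and *Lyz2* made up most of each sum. Neutrophil markers were at 272 to 356 CPM in saline and 365 to 410 CPM in CGRP macrophages, with *Ly6g* at 0 in 1 library of each group. T cell markers summed to 0 to 0.303 CPM in saline and 0.375 to 1.93 CPM in CGRP macrophages, with *Cd3e* and *Cd3g* at 0 in all 6 libraries. All of these T cell sums but the highest lay below the floor of 3 counts. Eosinophil and basophil markers summed to 8.04 to 9.61 CPM in saline and 10.7 to 13.2 CPM in CGRP macrophages, led by *Prg2* or *Mcpt8*, with *Epx* at 0 in all 6 libraries. In neutrophils the same markers summed to 1036 ± 78.2 CPM in saline and 994 ± 75.8 CPM with CGRP, led by *Prg2*, and these sums overlapped. *Cd79b*, a B cell gene, was at 31.8 to 33.0 CPM in saline and 37.6 to 40.5 CPM in CGRP macrophages, which did not overlap, with the B cell genes *Cd79a* and *Ms4a1* at 0 in all 6 libraries, and at 59.5 to 73.4 CPM in saline and 69.3 to 76.4 CPM in CGRP neutrophils, which overlapped. The part of these cells in the results below was not tested. The sums of the erythroid and platelet markers overlapped between saline and CGRP in each cell type. Erythroid markers, led by *Hbb-bs*, summed to 6372 ± 745 CPM in saline and 6265 ± 659 CPM in CGRP neutrophils, and platelet markers, led by *Pf4*, to 773 ± 187 and 805 ± 174 CPM in macrophages. Nearly all of this macrophage sum was *Pf4* (770 ± 188 and 798 ± 177 CPM). The platelet genes *Gp9* and *Gp1bb* were at 0 in every saline macrophage library.

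In macrophages 3 of the 10 genes passed the threshold (adjusted p under 0.05, limma-voom), with *Crem* and *Crtc3* higher and *Atf3* lower under CGRP. Of all 9393 genes tested in macrophages, 7.43% passed, 3.46% higher and 3.97% lower. In neutrophils none of the 10 passed in limma-voom, edgeR or DESeq2, 1 (*Crem*) had an unadjusted p under 0.05 in limma-voom, and 2.53% of the 9819 genes tested passed (1.51% higher, 1.02% lower). Over the 10 genes the log2 fold changes had a median of 0.05 (neutrophils) and 0.04 (macrophages), beside 0.0008 and 0.0047 over all genes tested. The CGRP and saline libraries did not overlap for 7 genes in macrophages (3 higher, 4 lower) and for 3 in neutrophils (2 higher, 1 lower), where 24.1% (11.9% higher, 12.3% lower) and 17.8% (8.96% higher, 8.83% lower) of all genes tested did not overlap. The effects of *Crem* and *Atf3* differed between the cell types in the interaction test, in which 2.36% of 10694 genes passed (1.21% with the higher and 1.15% with the lower effect in macrophages).

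**Figure D1:**
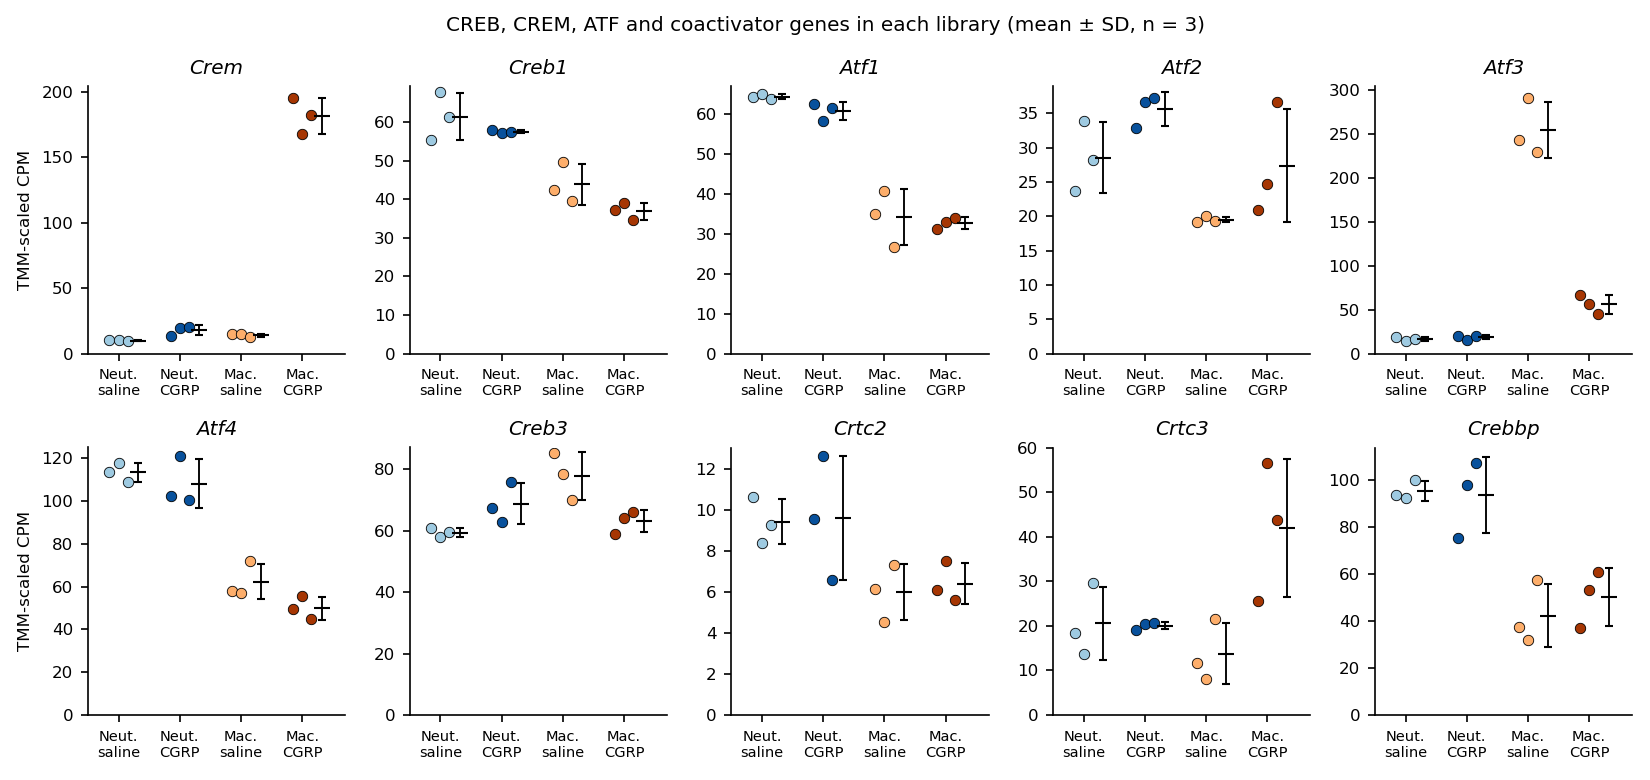
Level of each of the 10 genes in every library, in TMM-scaled CPM (vertical axis from 0, with its own scale for each gene), for saline and CGRP neutrophils (blue) and macrophages (orange). Points are libraries and the bars are the mean ± SD of 3. In macrophages *Crem* stands between 168 and 195 CPM with CGRP and at most 14.8 CPM in saline, and *Atf3* between 229 and 290 CPM in saline and at most 66.4 CPM with CGRP. TMM was set within each cell type, so heights compare libraries of one cell type.

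*Crem* (ENSMUSG00000063889, chr18:3266048-3337748 in GRCm38, minus strand) encodes CREM and ICER. Saline macrophages held 50, 49 and 34 *Crem* counts, or 14.6, 14.8 and 12.4 CPM, and CGRP macrophages held 607, 447 and 358 counts, or 195, 168 and 182 CPM. The 2 groups were far apart and each was narrow, with means of 13.9 ± 1.32 and 181 ± 13.6 CPM. *Crem* rose 12.8-fold in macrophages (log2 fold change 3.68 ± 0.19, SE, 95% interval 3.29 to 4.08, adjusted p = 5.4e-09). In neutrophils it was at 9.97, 10.5 and 9.26 CPM in saline and at 13.7, 19.7 and 20.6 CPM with CGRP. Every CGRP neutrophil library lay above every saline one, with replicate 1 the lowest of the CGRP libraries. The log2 fold change was 0.81 ± 0.23 (SE, 95% interval 0.33 to 1.29), and its adjusted p of 0.0692 did not pass the threshold. Without CGRP neutrophil replicate 1 it was 1.00 and passed (adjusted p = 0.0182), and over all alternatives and left-out libraries the adjusted p lay between 0.0182 and 0.261. The response was larger in macrophages than in neutrophils by 2.88 ± 0.28 on the log2 scale (interaction, adjusted p = 1.29e-06).

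The annotation lists 39 transcripts of *Crem*, 32 of them coding, with 21 distinct coding starts. The gene counts pool these transcripts, so that full-length CREM and ICER cannot be told apart. No other annotated gene shares 31-base sequences with the last 500 bases of *Crem*, and the opposite-strand gene *Gm6225* that overlaps it was counted at most 3 times in a library.

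*Creb1* (ENSMUSG00000025958, chr1:64532645-64604548, plus strand) and *Atf1* (ENSMUSG00000023027, chr15:100227819-100261244, plus strand) encode the other 2 factors of the CREM subfamily, and neither passed the threshold in either cell type. *Creb1* was at 42.5, 49.7 and 39.5 CPM in saline and 37.2, 39.0 and 34.5 CPM in CGRP macrophages. Each CGRP library was lower than each saline library, by a narrow margin, and the log2 fold change was -0.24 ± 0.17 (SE, adjusted p = 0.480). In neutrophils *Creb1* means were 61.5 ± 6.15 CPM in saline and 57.6 ± 0.371 CPM with CGRP (log2 fold change -0.09 ± 0.12). *Atf1* means were 34.1 ± 7.00 and 32.7 ± 1.48 CPM in macrophages and 64.3 ± 0.655 and 60.7 ± 2.26 CPM in neutrophils (log2 fold changes -0.06 ± 0.19 and -0.09 ± 0.11). Of the last 500 bases of *Atf1*, 24.3% of 31-base sequences also occur in the pseudogene *Atf1-ps*, which had 0 counts in all 12 libraries, so that its counts are uncertain to that extent. The *Atf1* promoter holds a core site (capitals) 90 bases before the RefSeq start, at chr15:100227757-100227786 on the plus strand, and the *Creb1* promoter holds none. It is shown because, of *Creb1* and *Atf1*, a match was found in *Atf1* alone. The promoter of *Crem* was not searched.
Atf1: gtgaccacgcggTGACGcagcacgccggcg

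Of the counts of *Crem*, *Creb1* and *Atf1* together, the share that came from *Crem* was 15.8%, 14.1% and 15.8% in saline macrophages and 74.0%, 70.0% and 72.6% in CGRP macrophages. In neutrophils the share was 7.69%, 7.32% and 6.90% in saline and 10.2%, 14.6% and 14.8% with CGRP. The Wilson 95% intervals of single libraries ran from 10.8% to 21.3% over saline and from 66.3% to 76.9% over CGRP macrophages, and from 4.75% to 10.7% over saline and 7.67% to 19.1% over CGRP neutrophils. The shares of saline and CGRP libraries did not overlap in either cell type, but the Wilson intervals did in neutrophils, where *Crem* itself did not pass. The share was not tested. It is a share of counts, not of protein, since genes can differ in how their 3′ ends are captured.

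*Atf3* (ENSMUSG00000026628, chr1:191170296-191218039, minus strand) encodes the stress-induced ATF3. Saline macrophages held 834, 958 and 626 counts (243, 290 and 229 CPM) and CGRP macrophages held 207, 150 and 88 counts (66.4, 56.2 and 44.7 CPM). The lowest saline library was well above the highest CGRP library. *Atf3* fell to 0.222 of its saline level in macrophages, and the log2 fold change was -2.17 ± 0.17 (SE, 95% interval -2.52 to -1.82, adjusted p = 5.61e-07). In neutrophils it was at 18.7, 13.8 and 16.4 CPM in saline and at 20.4, 15.9 and 20.2 CPM with CGRP. These ranges overlapped, and the log2 fold change was 0.20 ± 0.20 (SE, adjusted p = 0.762). The difference between the cell types was -2.35 ± 0.27 on the log2 scale (interaction, adjusted p = 1.06e-05). Saline macrophages had more *Atf3* than saline neutrophils by 3.91 ± 0.19 on the log2 scale (adjusted p = 1.48e-14).

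*Atf4* (ENSMUSG00000042406, chr15:80255184-80257541, plus strand) encodes a factor known to be controlled largely by translation, which RNA counts do not measure. Its means were 62.4 ± 8.32 CPM in saline and 49.98 ± 5.39 CPM in CGRP macrophages, and 113 ± 4.40 and 108 ± 11.4 CPM in neutrophils. The macrophage groups did not overlap, at 57.3 to 72.0 against 44.7 to 55.5 CPM, but the log2 fold change of -0.30 ± 0.16 did not pass (SE, adjusted p = 0.329). *Atf2* (ENSMUSG00000027104, chr2:73816509-73892639, minus strand), a factor activated by stress kinases, was at 19.2, 20.0 and 19.4 CPM in saline and 20.9, 24.7 and 36.6 CPM in CGRP macrophages. CGRP replicate 3 stood highest and the other 2 lay close to saline, and the effect did not pass (log2 fold change 0.40 ± 0.22, SE, adjusted p = 0.349). In neutrophils *Atf2* was at 28.6 ± 5.11 and 35.6 ± 2.44 CPM (log2 fold change 0.32 ± 0.16, adjusted p = 0.408). The promoters of *Atf3* and *Atf4* hold core sites, shown here from the strand of the gene, where the capitals CGTCA are the core site of the opposite strand. They lie at chr1:191183323-191183352 (minus strand, 7 bases before the RefSeq start) and chr15:80255160-80255189 (plus strand, 12 bases before it), and *Atf4* has another 41 bases after its start. They are shown because *Atf3* is the gene of the 10 that fell and *Atf4* is the factor whose known targets were also counted.
Atf3: ttaatagcattaCGTCAgcctgggattggt
Atf4: ttcggctttgacCGTCAgagctttggctag
No full element was found in the promoters of the 8 genes searched (all but *Crem* and *Crtc2*), and the core site was found in 3 of the 8.

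*Creb3* (ENSMUSG00000028466, chr4:43562332-43567060, plus strand) encodes a factor anchored in the endoplasmic reticulum membrane and released by cleavage. It was at 85.3, 78.5 and 69.8 CPM in saline and 59.0, 64.1 and 66.1 CPM in CGRP macrophages, and at 60.7, 57.9 and 59.5 CPM in saline and 67.2, 62.8 and 75.9 CPM in CGRP neutrophils. Each macrophage CGRP library was thus below, and each neutrophil CGRP library above, all saline libraries of its cell type. Neither log2 fold change passed (-0.31 ± 0.15, adjusted p = 0.264, and 0.19 ± 0.12, adjusted p = 0.530), nor did their difference (-0.50 ± 0.18, adjusted p = 0.195). The exons of *Creb3* overlap *Tln1* and *Gba2* on the opposite strand, with 8764 and 566 counts over the 12 libraries, and the strand setting of the counting is not given in the sources used here. Its counts are therefore uncertain. *Tln1* had log2 fold changes of -0.28 in neutrophils and -0.13 in macrophages, and *Gba2* had -0.38 and 0.39, none past the threshold.

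Of the coactivators, *Crtc3* (ENSMUSG00000030527, chr7:80586627-80688877, minus strand) passed in macrophages. CRTC3 binds CREB once dephosphorylated and raises its activity. Saline macrophages held 40, 27 and 59 counts (11.6, 8.18 and 21.6 CPM) and CGRP macrophages 80, 151 and 86 counts (25.7, 56.6 and 43.7 CPM). The groups did not overlap, but both were wide, and saline replicate 3 came close to CGRP replicate 1. *Crtc3* rose 3.12-fold (log2 fold change 1.64 ± 0.34, SE, 95% interval 0.93 to 2.36, adjusted p = 5.4e-03). Leaving out each library in turn gave log2 fold changes from 1.33 to 2.01, and all 6 passed (highest adjusted p = 0.0447, without saline replicate 1). In neutrophils *Crtc3* was at 18.4, 13.8 and 29.6 CPM in saline and at 19.1, 20.5 and 20.6 CPM with CGRP, and saline replicate 3 was again the highest of its group. The neutrophil CGRP libraries lay within the saline range (log2 fold change 0.06 ± 0.22, SE, adjusted p = 0.952). The difference between cell types, 1.59 ± 0.45, had an adjusted p of 0.0599 and did not pass in limma-voom, but passed with edgeR (1.65, adjusted p = 0.0333) and DESeq2 (1.66, adjusted p = 0.0164).

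*Crtc2* (ENSMUSG00000027936, chr3:90254163-90264125, plus strand), a coactivator of the same family, was counted 11 to 43 times per library. Its means were 5.99 ± 1.39 and 6.39 ± 0.988 CPM in saline and CGRP macrophages and 9.42 ± 1.11 and 9.59 ± 3.02 CPM in neutrophils. The 95% intervals of its log2 fold changes, -0.56 to 0.85 and -0.52 to 0.60, leave room for changes of either sign. *Crebbp* (ENSMUSG00000022521, chr16:4081328-4213997, minus strand) encodes the acetyltransferase CBP. It was at 42.3 ± 13.3 and 50.4 ± 12.3 CPM in saline and CGRP macrophages and at 95.4 ± 4.14 and 93.5 ± 16.3 CPM in neutrophils, with log2 fold changes of 0.26 ± 0.23 and -0.05 ± 0.12. Neither coactivator passed in either cell type.

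**Figure D2:**
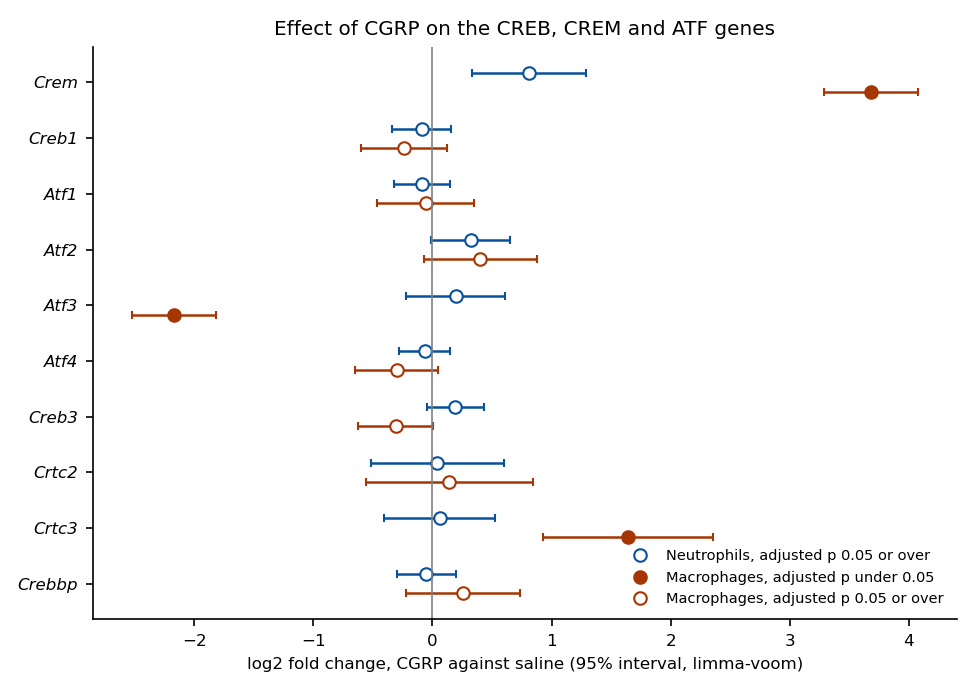
Log2 fold change of CGRP against saline (horizontal axis) for each of the 10 genes, with 95% intervals from limma-voom. Blue is neutrophils, orange is macrophages, and filled points passed the threshold. *Crem* (3.68), *Crtc3* (1.64) and *Atf3* (-2.17) are filled in macrophages, and no neutrophil point is.

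Saline macrophages and saline neutrophils were then set side by side in the fit over 12 libraries. Cell type, medium, time in culture and count table cannot be told apart here, and 67.9% of the 10694 genes tested differed between the 2 (32.5% higher and 35.4% lower in macrophages), so that the 8 of 10 genes that did are near that background. *Atf3* was higher in macrophages by 3.91 and *Creb3* by 0.35 (adjusted p = 0.0185) on the log2 scale. Lower in macrophages were *Crebbp* (-1.28), *Atf1* (-0.97), *Atf4* (-0.92), *Crtc2* (-0.72), *Atf2* (-0.58) and *Creb1* (-0.53), with adjusted p between 1.11e-06 and 0.0345. *Crem* (0.44 ± 0.23, SE, adjusted p = 0.0968) and *Crtc3* (-0.67 ± 0.34, SE, adjusted p = 0.0833) did not pass. These contrasts share the saline libraries with the CGRP comparisons.

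4 lists around the pathway were read in the same fits, of known targets of cAMP and CREB, known targets of ATF4, further CREB and ATF relatives, and kinases and phosphatases that act on CREB and the CRTCs. They were drawn up from general knowledge, with earlier results of these data known, so that their counts are descriptions and not independent evidence. The target list of cAMP and CREB had 24 genes. In macrophages 14 could be tested and 9 passed, all higher (64.3%, beside 7.43% of all genes tested, log2 fold change at the median 0.97). Among these 9, *Nr4a2* passed the filter only through the CGRP libraries, so that it could be counted only as higher. In neutrophils 18 could be tested and 5 passed, all higher (27.8%, beside 2.53% of all genes tested, median 0.32).

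*Nr4a2*, an orphan nuclear receptor and early target of CREB, held 4, 7 and 11 counts in saline and 131, 117 and 75 counts in CGRP macrophages. It rose there by 4.22 log2 units (SE 0.39, adjusted p = 3.38e-06) and in neutrophils by 1.47 (SE 0.22, adjusted p = 2.79e-04), from 8.44 ± 0.267 to 23.7 ± 2.39 CPM. *Pde4b*, a phosphodiesterase that breaks down cAMP, rose in macrophages from 12.4 ± 0.502 to 137 ± 4.71 CPM (3.45 on the log2 scale, adjusted p = 7.99e-09) and in neutrophils from 52.0 ± 4.31 to 79.2 ± 6.87 CPM (0.60, adjusted p = 5.01e-03). A second phosphodiesterase, *Pde3b*, rose by 3.09 in macrophages, from 6.21 ± 0.655 to 56.8 ± 15.7 CPM. Both encode enzymes that remove the signal that activates CREB.

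*Vegfa*, the vascular growth factor, rose by 2.52 in macrophages, and *Btg2*, an antiproliferative gene, by 1.34. *Junb*, an AP-1 subunit, rose in both cell types, by 1.08 and by 0.35 in neutrophils. *Fos*, its partner in AP-1 and a classic CREB target, rose by 1.30 in neutrophils, from 52.2 ± 6.61 to 128 ± 17.3 CPM, and by 0.77 in macrophages, from 160 ± 13.2 to 272 ± 25.1 CPM. The difference between these 2 rises did not pass (-0.52 ± 0.18, SE, adjusted p = 0.177). *Dusp1*, a phosphatase of MAP kinases, rose in neutrophils by 0.41 and had a log2 fold change of -0.03 in macrophages (adjusted p = 0.935), and that difference did not pass either (adjusted p = 0.255). The remaining 2 that passed in macrophages, *Nr4a1* (1.00) and *Rgs2* (0.85), are named because their number is small, after their values were seen.

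Of the 18 target genes with a RefSeq promoter, 3 held the full element and 15 the core site in at least 1 promoter, beside 2.03% and 23.0% of 27025 genes. The core site was not particular to this list. It was also found in 12 of 14 genes of the kinase and phosphatase list, 8 of 15 relatives and 5 of 18 targets of ATF4. The sites of *Btg2* (chr1:134079303-134079332, minus strand, 166 bases before the start), *Dusp1* (chr17:26508597-26508626, minus strand, 143 bases before) and *Fos* (chr12:85473812-85473841, plus strand, 66 bases before) are shown because these genes passed in 1 cell type each or in both. Capitals mark the full element in *Btg2* and *Dusp1* and the core site in *Fos*. A match is a run of letters, and no binding was measured.
Btg2: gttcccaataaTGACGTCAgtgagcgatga
Dusp1: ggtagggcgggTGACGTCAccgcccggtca
Fos: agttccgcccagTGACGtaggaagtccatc

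Among 20 kinases and phosphatases, 2 of 18 tested passed in neutrophils (11.1%, both higher, beside 2.53% of all genes tested) and none of 16 in macrophages (7.43% of all genes tested), in limma-voom and in edgeR alike, with 1 at an unadjusted p under 0.05. *Prkar1a*, the regulatory subunit that holds protein kinase A inactive, was at 332, 350 and 339 CPM in saline and 545, 509 and 530 CPM in CGRP neutrophils. These groups were tight and apart, with a rise of 0.63 log2 units (SE 0.08, adjusted p = 3.79e-05). In macrophages *Prkar1a* did not overlap between groups either, at 297, 290 and 269 against 378, 382 and 365 CPM, but its log2 fold change of 0.39 ± 0.12 did not pass (SE, adjusted p = 0.0635), and the 2 effects did not differ past the threshold (interaction -0.23, adjusted p = 0.522). Of the 6 *Prkar1a* promoters in RefSeq, 2 hold a full element (capitals) and 4 hold none. It is a single site at chr11:109650889-109650918, plus strand, which lies 49 bases before the start of one promoter and 39 bases after that of the other, and is shown because the gene passed in neutrophils.
Prkar1a: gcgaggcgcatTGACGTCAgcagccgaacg
*Sik3*, a salt-inducible kinase that keeps the CRTCs in the cytoplasm, rose in neutrophils from 9.81 ± 3.23 to 21.8 ± 1.24 CPM (1.21 on the log2 scale, adjusted p = 3.42e-03), and was at 7.33 ± 2.51 and 10.9 ± 2.08 CPM in macrophages (adjusted p = 0.288).

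Of 21 targets of ATF4, 3 of 17 passed in macrophages, all higher (17.6%, beside 7.43% of all genes tested, median 0.09), and 2 of 20 in neutrophils, 1 in each direction (10%, beside 2.53%, median 0.04). *Slc7a11*, the cystine transporter, rose in both, by 1.17 in macrophages and 1.02 in neutrophils, where it went from 21.7 ± 0.646 to 44.0 ± 3.88 CPM. *Sesn2* and *Ddit4*, both inhibitors of the growth kinase mTORC1, rose in macrophages by 1.72 and 3.10. *Ddit4* rested on 2, 6 and 1 counts in saline and 33, 16 and 13 counts with CGRP, and, like *Nr4a2* in the other target list, it passed the filter in macrophages only through the CGRP libraries, so that it could be counted only as higher. *Nupr1*, a stress-response chromatin protein, fell by 0.49 in neutrophils (adjusted p = 0.0237). *Asns*, *Psat1* and *Phgdh*, enzymes of amino acid synthesis on the same list, had log2 fold changes of -0.14, 0.05 and 0.27 in macrophages, none past the threshold. They are examples, not chosen by adjusted p. Others on the list were *Mthfd2* (-0.40), *Aldh18a1* (-0.39), *Shmt2* (0.15) and *Pck2* (0.44), none past the threshold either. The *Mthfd2* groups did not overlap, with CGRP lower. Those of *Pck2*, and of *Slc3a2* (0.36, also not past the threshold), did not overlap either, with CGRP higher. Of all genes tested in macrophages, 24.1% did not overlap.

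Among 19 further relatives, none of 15 passed in neutrophils in limma-voom or edgeR (beside 2.53% of all genes tested, 2 at an unadjusted p under 0.05) and 1 of 14 in macrophages (7.14%), near the 7.43% of all genes tested there. This was *Batf3*, an AP-1 family factor best known from dendritic cell development, which fell from 95, 95 and 65 counts in saline to 16, 8 and 4 counts in CGRP macrophages and passed the filter only through the saline libraries (log2 fold change -2.92 ± 0.36, SE, adjusted p = 5.82e-05). *Jdp2*, a repressor of AP-1 related to *Atf3*, is named after its values were seen: it had a log2 fold change of 1.54 in macrophages that did not pass in limma-voom (adjusted p = 0.125) and did in edgeR (1.93, adjusted p = 0.0455). It held 6, 7 and 4 counts in saline and 11, 11 and 29 counts in CGRP macrophages, with CGRP replicate 3 far above the other 2. It passed the filter only through the CGRP libraries, so that it could be called only as higher. *Atf5* is on this list and on that of ATF4 targets and passed in neither cell type.

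**Figure D3:**
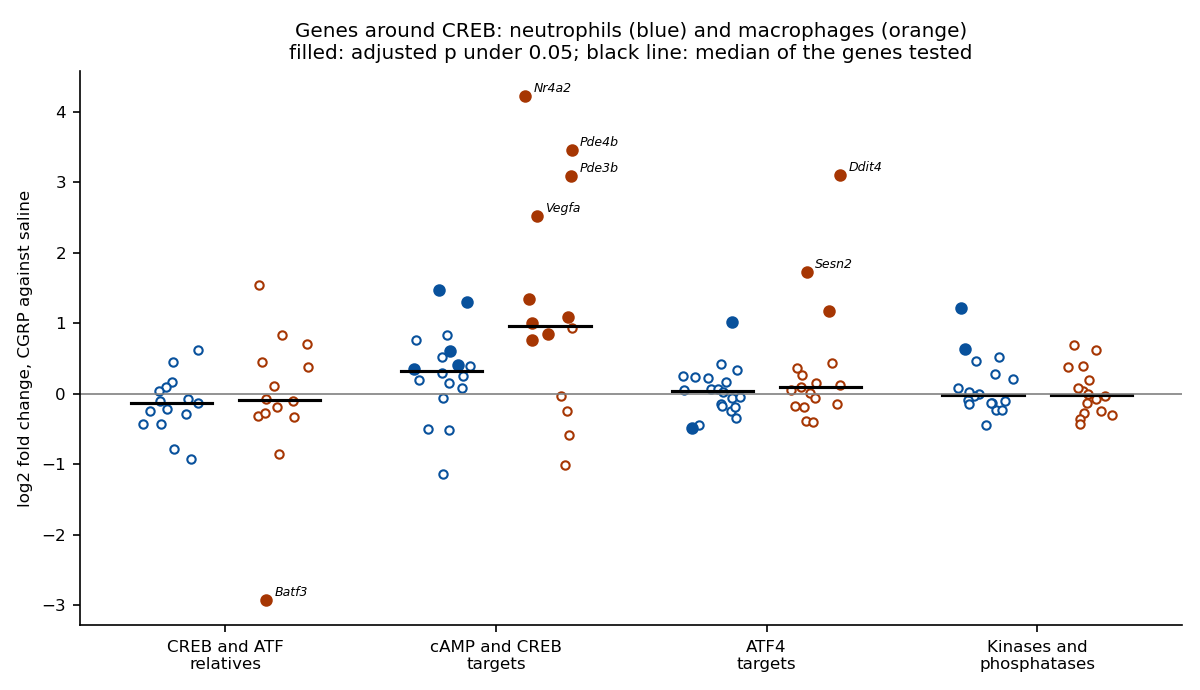
Log2 fold change of CGRP against saline (vertical axis) for each tested gene of the 4 lists, in neutrophils (blue) and macrophages (orange). Filled points passed the threshold, black lines are medians and names are printed for called genes beyond 1.6. The medians of the cAMP and CREB targets stand at 0.32 and 0.97, those of the other lists between -0.13 and 0.09.

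The genes with a pattern most like *Crem*, *Atf3* and *Crtc3* were looked for among the other 10693 genes tested over 12 libraries. The measure was the root mean square difference in log2 CPM (0.5 added to each count) after subtracting the mean of the saline libraries of each cell type. It includes the response to CGRP, so that a response like that of the named gene follows from the choice and is a description only. Closest to *Crem* were *Pde4b* (0.22), *Il1b* (0.28), *Cytip* (0.30), *Nt5e* (0.33) and *Calca* (0.41), against a median of 1.91 over all genes. *Il1b*, an inflammatory cytokine, held 12, 14 and 15 counts in saline and 198, 154 and 100 counts in CGRP macrophages, and rose in both cell types, by 3.71 in macrophages and 1.06 in neutrophils. *Cytip*, which encodes an adaptor known to regulate leukocyte adhesion, rose by 3.35 and 0.73. *Nt5e*, the ectoenzyme CD73 that makes adenosine, held 1, 1 and 0 counts in saline and 11, 10 and 6 in CGRP macrophages. *Calca*, the gene of CGRP itself and of calcitonin, held 0 counts in all 3 saline macrophage libraries and 7, 3 and 5 counts in the CGRP libraries, too few to pass the filter there. *Nt5e* did not pass that filter either, so that neither gene has a test in macrophages, and at counts of 0 or 1 their saline levels, and with them their closeness to *Crem*, depend on the 0.5 added. In neutrophils *Calca* had 26, 33 and 24 counts in saline and 46, 33 and 25 with CGRP, and did not pass (log2 fold change 0.39, adjusted p = 0.578).

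Closest to *Atf3* were *Ccl2* (0.18), *Ccl4* (0.19), *Mocos* (0.24), *Rasgef1b* (0.27) and *Bcl2l1* (0.28), against a median of 1.16. All 5 fell in macrophages, by 1.87 to 2.34 on the log2 scale, and none passed in neutrophils, as their choice by likeness to *Atf3* entails. *Ccl2*, the chemokine that draws monocytes, went from 50.4 ± 6.43 to 11.9 ± 2.30 CPM in macrophages and had means of 75.9 ± 3.79 and 81.1 ± 15.5 CPM in neutrophils. *Ccl4*, another chemokine, went from 59.7 ± 6.42 to 15.9 ± 3.24 CPM in macrophages, and *Bcl2l1*, which encodes the survival protein BCL-XL, from 81.8 ± 10.3 to 15.7 ± 2.19 CPM. In these genes, as in *Atf3*, CGRP replicate 3 was the lowest of the 6 macrophage libraries.

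Closest to *Crtc3* were *Cmip* (0.28), *Ulk1* (0.30), *Fam43a* (0.33), *Rnf145* (0.33) and *Sesn2* (0.33), against a median of 0.98. All 5 rose in macrophages, by 1.36 to 1.72, and none passed in neutrophils, as their choice by likeness to *Crtc3* entails. *Ulk1*, the kinase that starts autophagy, held 20, 9 and 24 counts in saline and 39, 49 and 29 in CGRP macrophages. *Crtc3* and all 5 of these genes were highest in replicate 3 and lowest in replicate 2 among the saline macrophages, so that part of the likeness lies in the spread between replicates.

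**Figure D4:**
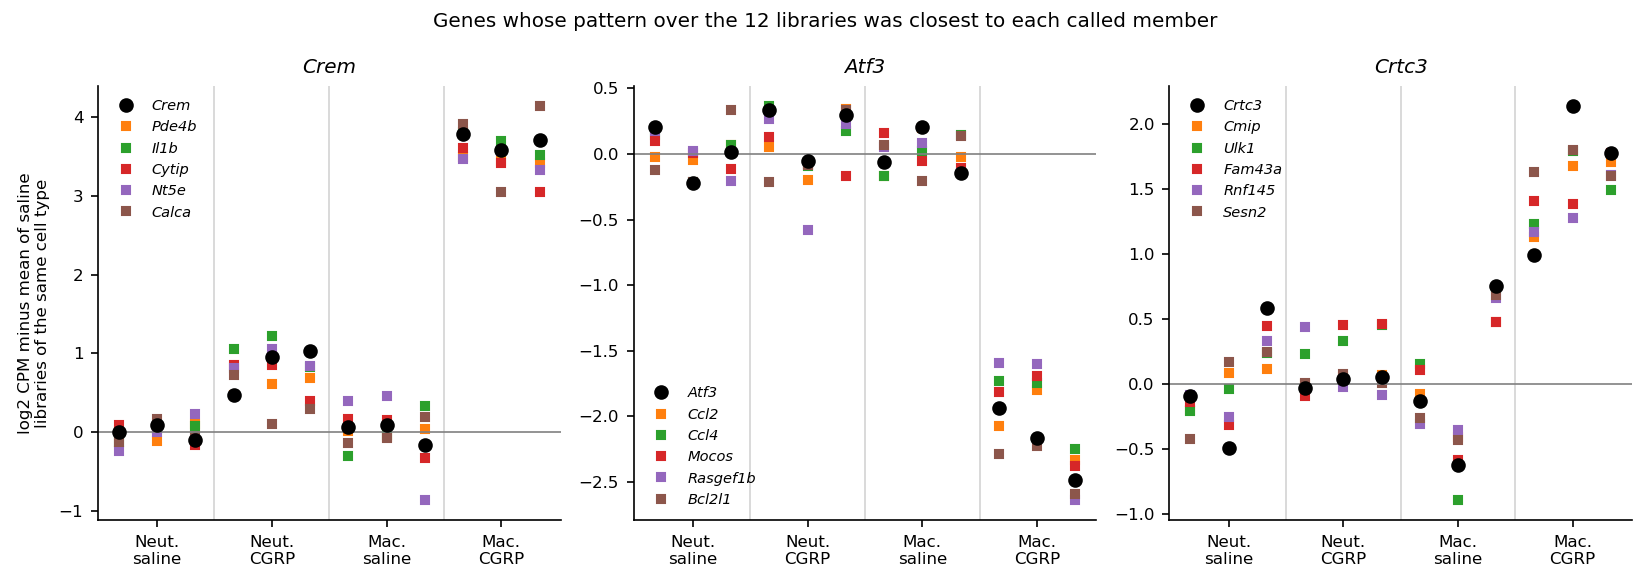
Log2 CPM of *Crem*, *Atf3* and *Crtc3* (black) and of the 5 genes closest to each (colours) in the 12 libraries in order of group and replicate, minus the mean of the saline libraries of the same cell type (vertical axis). The *Crem* set rises in macrophages with CGRP and less in neutrophils, the *Atf3* set falls in macrophages, and the *Crtc3* set shares its scatter among saline macrophage libraries.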

How the data were processed

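Neutrophils and M-CSF-cultured monocytes (3 libraries per group) were sequenced from dT-primed cDNA with unique molecular identifiers. In the nfCore/RNAseq pipeline, run with its umi option, the authors used STAR to align to GRCm38 and featureCounts to count reads per gene, and they deposited these raw counts, not normalized, in 1 table per cell type. The annotation release, strand setting and filters are not given in the sources used here. Counts were filtered (filterByExpr), scaled by TMM and tested by limma-voom (limma 3.58.1, edgeR 4.0.16, R 4.3.3), two-sided, with Benjamini-Hochberg adjustment over all genes tested, in each cell type and, for the interaction and the saline contrast, over 12 libraries. The alternatives included edgeR's quasi-likelihood test and DESeq2 1.42.0. The limma-voom and edgeR tests were first run on simulated data. No 2 libraries were identical. Of the gene identifiers, 52489 were found in GENCODE M21. Promoters are from RefSeq (GRCm38.p6), with 8 of the 10 genes matched. From each list, up to 6 genes per cell type past the threshold were named by smallest adjusted p, and the 5 genes closest to each called gene. The genes and lists were chosen with earlier results of these data known. The sum over the B cell marker list is not reported here.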

Additional observations from a re-analysis of the deposited data

Results flagged for a closer look

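Of the 10 genes and the 17 genes of the 4 lists that passed within a cell type, 11 responded to CGRP differently in macrophages and neutrophils by the interaction test of limma-voom (adjusted p under 0.05), as did 2.36% of all 10694 genes tested. The 17 were chosen by a contrast that is part of this test, so that their number is a description and is not to be read against that share. Genes named only for a pattern like that of *Crem*, *Atf3* or *Crtc3* are not counted here, since their choice used this contrast. The test shares its saline libraries with the comparisons within each cell type. *Crem*, the CREM and ICER gene, had an interaction of 2.88 ± 0.28 (log2, SE, adjusted p = 1.29e-06), and *Atf3* had -2.35 ± 0.27 (adjusted p = 1.06e-05).

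Among the targets of cAMP and CREB, *Pde4b* had 2.86 (adjusted p = 1.98e-08), *Nr4a2* 2.75 (adjusted p = 3.74e-04), *Pde3b* 2.33 (adjusted p = 1.46e-03), *Vegfa* 2.24 (adjusted p = 5.32e-03), *Btg2* 1.16 (adjusted p = 4.02e-05), *Rgs2* 0.77 (adjusted p = 0.0107) and *Junb* 0.74 (adjusted p = 0.0168). Among the targets of ATF4, *Ddit4* had 2.66 (adjusted p = 0.0195) and *Sesn2* 1.68 (adjusted p = 5.71e-03). Each of these 9 had the higher log2 fold change in macrophages. Groups of 3 libraries were too small to look for single outlying libraries.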

How the results depend on the processing

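The rise of *Crem* (log2 fold change 3.61 to 3.74), the fall of *Atf3* (-2.31 to -2.04) and the rise of *Crtc3* (1.33 to 2.01) in macrophages passed under all 15 alternatives and left-out libraries, and the interactions of *Crem* and *Atf3* under all 20. *Crtc3* passed the interaction test in 7 of 20, with edgeR, DESeq2, voomWithQualityWeights (1.81, adjusted p = 0.0047) and the replicate block (1.62, adjusted p = 0.0154) and in 3 of 12 fits without 1 library. The number of genes past the threshold moved more. In neutrophils it was 248, 137 in a single fit over 12 libraries, and 138 to 234 without 1 library. In macrophages it was 698, 1406 with voomWithQualityWeights, 1050 in the single fit, and 347 (without saline replicate 1) to 765 without 1 library. For the interaction it was 252, 520 with voomWithQualityWeights, and 149 (without macrophage saline replicate 1) to 328 without 1 library. The number of the 10 genes that passed in neutrophils was 0 to 1 without 1 library. Among the relatives in macrophages 2 passed with edgeR and 2 with the replicate block, where 1 did in limma-voom, and 735 and 915 of all genes did in those 2 fits. The added gene was *Jdp2*, which could be called only as higher. The cause of these shifts was not tested.

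Among the 10 genes, signs turned only for values that did not pass. Without 1 library, neutrophil log2 fold changes ranged from -0.19 to 0.23 for *Crtc2*, -0.20 to 0.33 for *Crtc3* and -0.14 to 0.096 for *Crebbp*, and *Crtc3* was at -0.018 with edgeR and -0.027 with DESeq2. In macrophages they ranged from -0.20 to 0.077 for *Atf1* and from -0.041 to 0.28 for *Crtc2*. The interactions of *Atf1* and *Atf2* were at -0.084 and -0.023 with library totals in place of TMM, and without 1 library ranged from -0.11 to 0.18 (*Atf1*), -0.11 to 0.28 (*Atf2*) and -0.11 to 0.32 (*Crtc2*).

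Between saline cells, *Creb3*, *Atf2* and *Crtc2* passed in 17, 18 and 12 of 19 alternatives, *Crtc3* in 4 and *Crem* in 1. Replicate numbers are shared between groups in the labels, but same-numbered libraries did not deviate together throughout (correlations -0.01 to 0.14 in neutrophils, -0.18 to 0.27 in macrophages). With the number as a block, 266, 915 and 295 genes passed in neutrophils, macrophages and the interaction. *Crtc2* was counted 11 to 43 times per library, and this depth limits the precision of its values.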
